A study of Homo sapiens with 6 samples.

Results

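The 45 genes described here encode the PI3 kinase, AKT and mTOR pathway and the AMPK branch that opposes it. They were taken by gene symbol from a list, and all 45 were among the 15894 genes measured. When insulin or a growth factor binds its receptor, PI3 kinase makes a lipid signal at the membrane that brings in the kinases PDPK1 and AKT. AKT blocks the TSC complex and the FOXO transcription factors, which lets RHEB switch on mTOR complex 1, and this complex drives protein synthesis through the S6 kinases and by releasing the 4E-BP repressors from eIF4E. AMPK, which LKB1 (STK11) activates when energy is short, restrains mTOR complex 1. The pathway is often mutated in colorectal cancer.

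The cells were RKO, an established human colon carcinoma line that is known to carry an activating mutation of PIK3CA. The shCIRC group carried a short hairpin RNA against the circular RNA hsa_circ_0064559, and the shEV group carried a control that the labels call both an empty vector and a nonsense shRNA. By the labels both were brought in with a lipid reagent, though the methods also speak of virus and transduction, and the cells were kept as stable transfectants among which the methods allow untransfected cells. Each group had 3 arrays of 1 cell line and 1 hairpin, so that loss of the circular RNA and other effects of this hairpin cannot be told apart. The knockdown of the circular RNA, for which the methods name a qRT-PCR, was not checked here. The hairpin sequences are shown because they are the sole labelled difference between the groups, 5′ to 3′ as the labels give them.
shCIRC: tttattatagcctgccacagc
nonsense shRNA: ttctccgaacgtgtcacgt

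Signals were log2 values from Affymetrix PrimeView arrays, normalized between arrays by the authors, so that a difference of 1 is a doubling of signal. The array medians lay between 6.82 and 6.85, and signals within a group correlated across probe sets with r of 0.998 to 0.999, against 0.987 to 0.988 between groups. The median SD within a group was 0.05 in shEV and 0.06 in shCIRC. Nothing in the labels tells whether a group came from separate cultures, so p-values measure only the spread between these arrays, which may be technical. Of the epithelial markers 5 of 6 were in the annotated table and CDH1 was not, and these moved both ways: KRT8 rose by 0.53 on the log2 scale, KRT18 had -0.30 and EPCAM -0.46 (limma adjusted p = 9.1e-04, 9.7e-04 and 0.0012), and KRT19 and CLDN4 did not pass. Of the colon markers 3 of 6 were there, and VIL1, KRT20 and CDH17 were not. The measured ones, CDX1, CDX2 and LGR5, did not pass, with CDX2 the brightest at 8.17 in shEV and 8.16 in shCIRC. The leukocyte, endothelial and fibroblast markers that were measured (7 of 12) had group means of 5.12 to 6.68. Their summed linear signals overlapped between the groups in each of the 3 lists. That of the epithelial list, in which KRT18 is by far the brightest at 11.25 in shEV and 10.95 in shCIRC, was 3134 to 3302 in shEV and 2719 to 2815 in shCIRC. The 3′ minus 5′ signal of the GAPDH control probe sets, which follows RNA quality, had a mean ± SD of -0.16 ± 0.02 on the shEV arrays against -0.30 ± 0.02 on the shCIRC arrays (n = 3 each), and that of ACTB was 0.13 ± 0.02 and -0.01 ± 0.03. The part of RNA quality in the changes given next was not tested. In such bulk RNA, fewer cells that express a gene and less of its RNA per cell cannot be told apart.

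For each gene the probe set with the highest mean over the 6 arrays was used, and shCIRC was compared with shEV by limma, where p was adjusted for the 15894 genes and 0.05 was the threshold. Errors of fold changes are standard errors (SE) of that fit. Of the 45 genes, 15 were higher in shCIRC (22.8% of all genes were), 16 were lower (24.7% of all genes were) and 14 did not pass. The share of members called, 68.9%, was above the 47.5% of all genes. Bright genes were called more often than dim ones, however, with 69.1% of the genes above the median signal, and 36 of the 45 members lay above it. With a fold above 1.3 as a further condition, 5 members were higher (7.44% of all genes were) and 8 lower (9.42% of all genes were). Of the 36 bright members, 69.4% were called, a share close to that of other genes as bright. The median log2 fold change was -0.01 over the members and -0.00 over all genes, and the median size of the change was 0.22 and 0.13. In 33 of the 45 genes the 3 arrays of one group lay on one side of the 3 of the other, as did those of 56.0% of all genes. For the fold condition, the size of the change and this overlap the members were not set beside genes as bright. The part of brightness in these was not tested. With the arrays centred on their median in place of the authors' scaling, 18 members were higher and 14 lower, and over all genes the calls moved from 3618 higher and 3928 lower to 5059 and 3000.

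**Figure D1:**
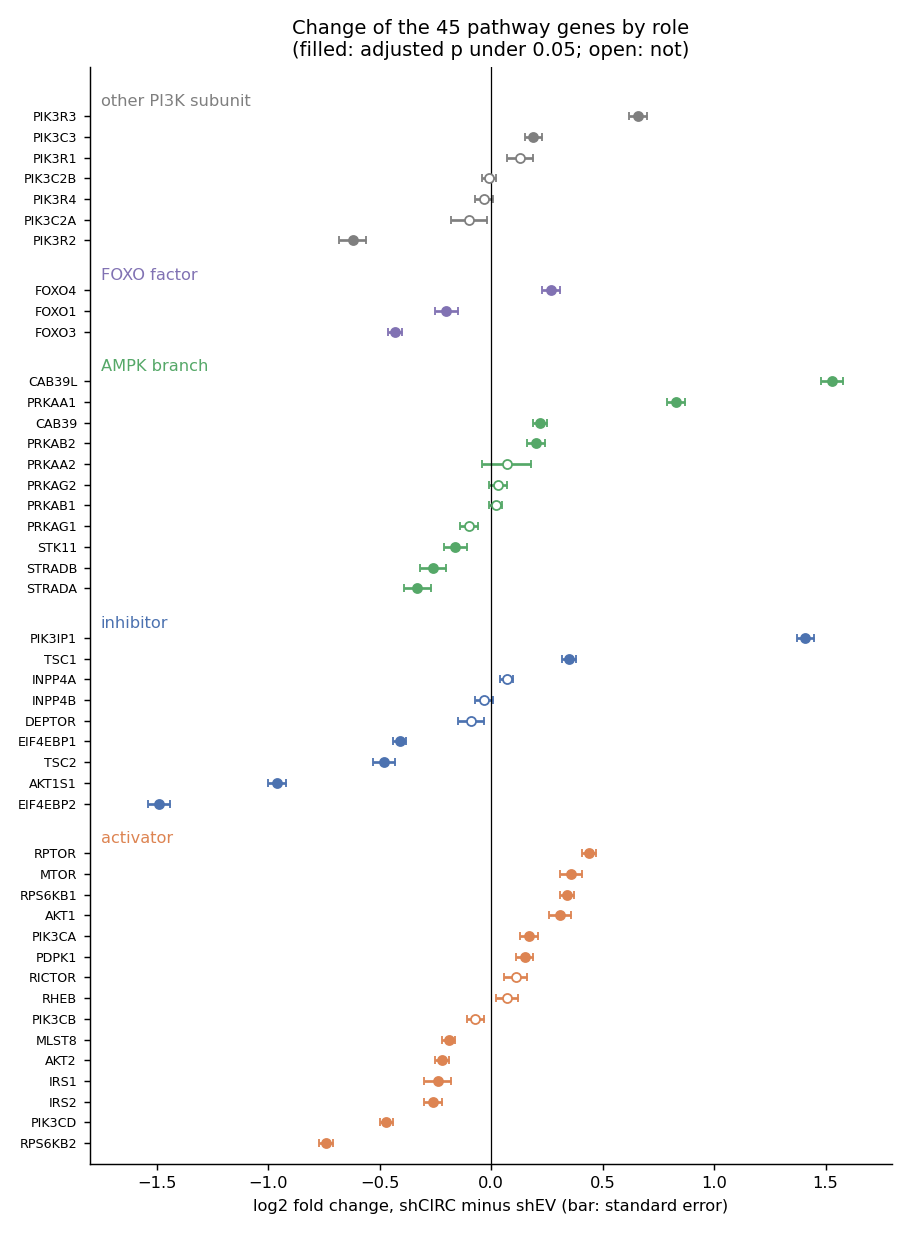
Log2 fold change of shCIRC minus shEV (horizontal axis) for each of the 45 genes, grouped by role, with the standard error of the limma fit as a bar; filled points had an adjusted p under 0.05 and open points did not. The inhibitors spread furthest, from -1.49 for EIF4EBP2 to 1.41 for PIK3IP1, while the activators stay between -0.74 and 0.44.

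Activators and inhibitors each held genes called in both directions, as did all genes (22.8% higher and 24.7% lower). Of the 15 activators 6 rose, 6 fell and 3 did not pass. The median log2 fold change of this group was 0.07. Of the 9 inhibitors 2 rose, 4 fell and 3 did not pass, with a median of -0.09. The difference of these medians was 0.16, against a spread of 0.09 (SD) between arrays of a group, and it was 0.06 without shCIRC replicate 1. It was also 0.06 when the other PI3K subunits were counted with the activators and the AMPK branch and FOXO factors with the inhibitors. These counts and medians are descriptions with no test. The share called was 80.0% of the activators and 66.7% of the inhibitors, against 69.1% of all genes above the median signal.

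The genes with the largest changes were CAB39L and PIK3IP1, which rose, and EIF4EBP2, which fell. Among all genes they stood 9th and 15th from the top and 18th from the bottom of the log2 fold changes. In the deposited annotation, which names no genome build, CAB39L lies on chromosome 13 from 49882785 to 49975735, PIK3IP1 on chromosome 22 from 31677309 to 31688682, both on the minus strand, and EIF4EBP2 on the plus strand of chromosome 10 from 72163873 to 72188374. Their promoter windows, from 250 bases before to 50 bases after a start site, are shown as RefSeq gives them for GRCh38.p14, 5′ to 3′ on the strand of the gene. Capitals mark the forkhead motif GTAAACA, which FOXO factors can bind, or its reverse complement TGTTTAC. Only 1 of the 2 windows of PIK3IP1, chr22:31292439-31292738 (minus strand), held it, from base 17 after the start. The windows of CAB39L, chr13:49401493-49401792 (minus strand), and EIF4EBP2, chr10:70403895-70404194 (plus strand), did not hold these letters.
PIK3IP1: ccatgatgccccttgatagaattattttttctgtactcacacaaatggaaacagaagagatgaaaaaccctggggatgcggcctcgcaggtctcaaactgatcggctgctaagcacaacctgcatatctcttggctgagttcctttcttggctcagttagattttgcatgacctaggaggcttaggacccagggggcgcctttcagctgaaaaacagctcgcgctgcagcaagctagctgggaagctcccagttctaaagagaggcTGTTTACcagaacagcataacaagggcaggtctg
CAB39L: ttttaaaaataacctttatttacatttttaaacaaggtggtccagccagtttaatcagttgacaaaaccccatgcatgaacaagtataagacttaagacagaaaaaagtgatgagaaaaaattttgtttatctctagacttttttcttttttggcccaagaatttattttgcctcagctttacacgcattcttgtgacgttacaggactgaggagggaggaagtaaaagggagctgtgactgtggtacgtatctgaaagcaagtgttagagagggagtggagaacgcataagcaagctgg
EIF4EBP2: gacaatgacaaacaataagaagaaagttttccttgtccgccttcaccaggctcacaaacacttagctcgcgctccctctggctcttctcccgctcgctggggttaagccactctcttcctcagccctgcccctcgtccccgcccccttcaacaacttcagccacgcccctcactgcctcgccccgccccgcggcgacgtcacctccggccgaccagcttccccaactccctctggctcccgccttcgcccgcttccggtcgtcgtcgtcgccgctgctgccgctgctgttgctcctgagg

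Promoter windows were found for 40 of the 45 genes. AKT1S1, EIF4EBP1, DEPTOR, MLST8 and STRADA had none. On either strand the forkhead motif was in 4 of the 40, PIK3IP1, FOXO4, PIK3CA and STK11. It was in 3.42% of all 35116 windows, counted by window and not by gene. The windows were searched for 9 other motifs in the same way. The E-box CACGTG was in 3 (7.26% of all windows), the E2F motifs TTTGGCGC and TTTCCCGC in 0 and 1 (0.652% and 1.63%), and the ATF4 and CEBP motif TGATGCAA in 1 (0.866%). CCAAT was in 20 (34.6%), the ETS motif CGGAAG in 18 (19.5%) and the CREB core TGACGT in 8 (7.98%). The full site TGACGTCA, which holds that core, and the CLEAR motif of lysosomal genes, a palindrome around the E-box, were in none (1.85% and 0.353%). A gene with several windows counts here if any of them holds the motif, which favours the members' counts. The counts of members and the shares of all windows given here are therefore not comparable, and no excess can be read from them.

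Beginning at the membrane, the insulin receptor adaptors IRS1 and IRS2 were both lower in shCIRC. IRS1 had a log2 fold change of -0.24 (SE 0.06, limma adjusted p = 0.015) and IRS2 of -0.26 (SE 0.04, limma adjusted p = 0.0028). The second probe set of IRS2 had -0.03 and did not pass. IRS1 no longer passed with arrays centred on their median (limma adjusted p = 0.054) or in the methods' t-test (adjusted p = 0.059).

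The catalytic subunits of class I PI3 kinase split. PIK3CD, which encodes p110 delta and is best known from leukocytes, had log2 signals of 8.44, 8.38 and 8.40 in shEV replicates 1 to 3 and of 7.93, 7.93 and 7.95 in shCIRC. All shCIRC arrays were lower than all shEV arrays, with a log2 fold change of -0.47 (SE 0.03, limma adjusted p = 3.0e-05). Of its other 3 probe sets 2 were lower, with -0.41 and -0.34, 1 had 0.14 and did not pass, and the mean of the probe sets gave -0.27. PIK3CA, which encodes p110 alpha, the form that is mutated in RKO, rose by a log2 fold change of 0.17 (SE 0.04, limma adjusted p = 0.011), and its second probe set had 0.27. PIK3CB, which encodes p110 beta, had -0.07 and did not pass (limma adjusted p = 0.20).

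Regulatory subunits, which hold the catalytic ones stable and bring them to receptors, changed by different amounts. The log2 signals of PIK3R3, which encodes p55 gamma, were 9.48, 9.56 and 9.58 in shEV and 10.19, 10.18 and 10.24 in shCIRC. Those of PIK3R2, which encodes p85 beta, were 7.74, 7.92 and 7.76 in shEV and 7.22, 7.23 and 7.09 in shCIRC. Neither gene's groups overlapped: PIK3R3 rose by 0.66 (SE 0.04, limma adjusted p = 2.2e-05) and PIK3R2 fell by 0.62 on the log2 scale (SE 0.06, limma adjusted p = 2.0e-04). All 5 probe sets of PIK3R3 were higher, with log2 fold changes of 0.25 to 0.88, and PIK3R2 has 1. PIK3R1, which encodes p85 alpha, had 0.13 and did not pass (limma adjusted p = 0.12), and 2 of its 8 probe sets were higher. It passed under several other settings, with limma adjusted p of 0.024 to 0.046.

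The kinases of class II and III make other lipids of membrane traffic and autophagy. PIK3C3, the class III kinase, rose by 0.19 on the log2 scale (limma adjusted p = 0.0068), while its partner PIK3R4 had -0.03 and PIK3C2B, of class II, -0.01, and neither passed. PIK3C2A, also of class II, had -0.10 at its brightest probe set (limma adjusted p = 0.34). Both of its other probe sets were lower, with -0.55 and -0.45, and the mean of its probe sets gave -0.37 (limma adjusted p = 1.0e-04).

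Among the proteins that restrain PI3 kinase, PIK3IP1, a membrane protein that binds and inhibits the catalytic subunit, had log2 signals of 7.65, 7.73 and 7.71 in shEV and of 9.08, 9.15 and 9.07 in shCIRC. Its signal was 2.65-fold higher in shCIRC, a log2 fold change of 1.41 (SE 0.04, limma adjusted p = 2.7e-06). Of its 8 probe sets 7 were higher, between 0.99 and 1.44. The eighth, which had a mean log2 signal of only 4.56, had 0.11 and did not pass (limma over probe sets, adjusted p = 0.18). INPP4A and INPP4B encode phosphatases that remove a lipid product of PI3 kinase. They had log2 fold changes of 0.07 and -0.03 and did not pass, with INPP4B near the dim end of the array at 5.09 in shEV and 5.07 in shCIRC.

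AKT1 was higher and AKT2 lower in shCIRC. The kinase AKT1 had a log2 fold change of 0.31 (SE 0.05, limma adjusted p = 0.0016) and the related AKT2 of -0.22 (SE 0.03, limma adjusted p = 0.0011). Of the 12 probe sets of AKT2, 2 were lower and 10 did not pass. Of the 3 of AKT1, 2 were higher and the dimmest had -0.11 and did not pass. PDPK1, which phosphorylates AKT and has a near-identical pseudogene that the probes may also bind, had 0.15 (limma adjusted p = 0.025), but its 6 probe sets ran from -0.29, a call in the other direction, to 0.15. The call of PDPK1 was lost with the mean of its probe sets (0.02, limma adjusted p = 0.51), in the methods' t-test (adjusted p = 0.054) and without shEV replicate 1 or shEV replicate 2 (limma adjusted p = 0.080 and 0.072).

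FOXO1 and FOXO3, transcription factors that AKT keeps out of the nucleus, were lower in shCIRC, and FOXO4 was higher. FOXO3 had log2 signals of 9.98, 9.89 and 9.95 in shEV and 9.54, 9.49 and 9.51 in shCIRC, and the groups did not overlap. Its log2 fold change was -0.43 (SE 0.03, limma adjusted p = 8.5e-05). All 3 of its probe sets fell, from -0.48 to -0.35, and all are of the type whose probes may also bind related transcripts, so FOXO3 and its near-identical pseudogene cannot be told apart here. FOXO1 had -0.20 (limma adjusted p = 0.012), with 3 of 4 probe sets lower. FOXO4 had 0.27 (limma adjusted p = 9.7e-04), but its other 5 probe sets had -0.05 to 0.06, none passed, and the mean of its probe sets gave 0.04 (limma adjusted p = 0.40).

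**Figure D2:**
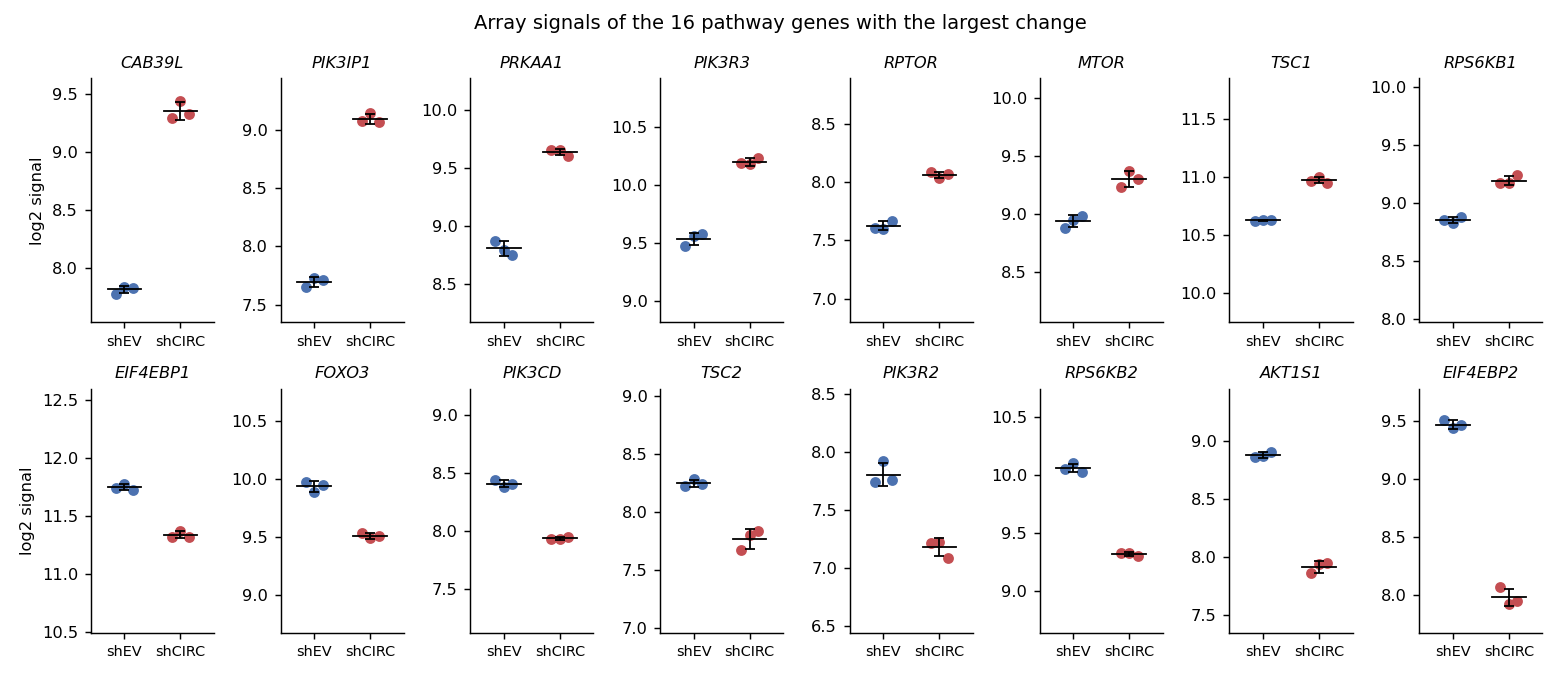
Log2 signal (vertical axis, each panel spanning the same range) on each of the 3 shEV and 3 shCIRC arrays for the 16 genes with the largest absolute change; points are arrays, the line and bar are the mean and SD. In each panel the arrays of one group lie apart from those of the other, from CAB39L (log2 fold change 1.53) to EIF4EBP2 (-1.49).

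TSC1 and TSC2, which together form the complex that turns RHEB off, moved apart. TSC1 had log2 signals of 10.62, 10.63 and 10.63 in shEV and of 10.97, 11.00 and 10.95 in shCIRC. TSC2, the subunit that acts on RHEB, had 8.22, 8.28 and 8.24 in shEV and 7.67, 7.80 and 7.83 in shCIRC. TSC1 was thus higher on all shCIRC arrays (log2 fold change 0.35, SE 0.03, limma adjusted p = 1.0e-04) and TSC2 lower on all of them (-0.48, SE 0.05, limma adjusted p = 2.3e-04). Of the 4 probe sets of TSC1, 3 were higher, and the second probe set of TSC2, with a mean signal of 4.68, had 0.18 and did not pass. RHEB itself, the GTPase that activates mTOR complex 1, had 0.07 (limma adjusted p = 0.29). Of its 4 probe sets 1 was higher with 0.16 and 1 was lower with -0.19. The deposited annotation aligns the one that rose to chromosome 10 and the others to chromosome 7.

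Of the core of the mTOR complexes, MTOR and RPTOR rose and MLST8 fell. MTOR, the kinase, had log2 signals of 8.88, 8.95 and 8.98 in shEV and 9.23, 9.37 and 9.30 in shCIRC. RPTOR, the subunit that defines complex 1, had 7.61, 7.60 and 7.67 in shEV and 8.09, 8.04 and 8.07 in shCIRC. The shCIRC arrays were all higher in both genes, with log2 fold changes of 0.36 (SE 0.05, limma adjusted p = 6.8e-04) and 0.44 (SE 0.03, limma adjusted p = 6.5e-05). Their other probe sets did not all bear the same change. The second of MTOR had -0.02 and did not pass. Of the 5 of RPTOR 2 were higher, the brightest and another with 0.19, 2 did not pass and 1 was lower with -0.15. RICTOR, the subunit that defines complex 2, had 0.11 and did not pass (limma adjusted p = 0.16). Of its 6 probe sets 1 was higher with 0.10 and 1 was lower with -0.15. The brightest passed with arrays centred on their median (limma adjusted p = 0.032) and, narrowly, with the trend and robust settings of limma. MLST8, which both complexes share, had -0.19 (limma adjusted p = 0.0032), and 3 of its 4 probe sets were lower.

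Of the 2 proteins that inhibit mTOR complexes directly, AKT1S1 (PRAS40), which AKT inactivates, had log2 signals of 8.86, 8.87 and 8.91 in shEV and 7.86, 7.94 and 7.95 in shCIRC. At this probe set its signal was 1.95-fold lower in shCIRC, a log2 fold change of -0.96 (SE 0.04, limma adjusted p = 5.4e-06). A second probe set of AKT1S1 moved in the other direction, with 0.59 (limma over probe sets, adjusted p = 7.7e-04), the dimmest had -0.63, and the mean of the 3 gave -0.33. The deposited annotation aligns all 3 to the same stretch of chromosome 19, from 50372294 to 50378946 for the brightest and to 50381086 for the one that rose, so the direction of AKT1S1 as a whole is not settled. DEPTOR had -0.09 at a signal of 5.67 in shEV and did not pass (limma adjusted p = 0.28).

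The translation repressors and S6 kinases, through which mTOR complex 1 acts on the ribosome, held some of the largest changes. EIF4EBP2, which binds eIF4E and blocks the start of translation, had log2 signals of 9.51, 9.44 and 9.47 in shEV and of 8.07, 7.93 and 7.95 in shCIRC, 2.81-fold lower in shCIRC. Its log2 fold change was -1.49 (SE 0.05, limma adjusted p = 3.2e-06), and its 5 probe sets all fell, from -1.84 to -0.55. EIF4EBP1, its close relative, had 11.74, 11.77 and 11.72 in shEV and 11.32, 11.37 and 11.32 in shCIRC. Its groups did not overlap either, and the log2 fold change was -0.41 (SE 0.03, limma adjusted p = 6.3e-05), with -0.41 to -0.37 over 3 probe sets.

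The S6 kinases moved in opposite directions. RPS6KB2 (S6K2) had log2 signals of 10.05, 10.10 and 10.03 in shEV and 9.33, 9.33 and 9.30 in shCIRC, a log2 fold change of -0.74 (SE 0.03, limma adjusted p = 9.0e-06). RPS6KB1 (S6K1) had 8.85, 8.83 and 8.88 in shEV and 9.17, 9.17 and 9.24 in shCIRC, a log2 fold change of 0.34 (SE 0.03, limma adjusted p = 2.3e-04). Neither gene's groups overlapped. All probe sets followed: the 4 of RPS6KB2 fell, from -0.74 to -0.62, and the 7 of RPS6KB1 rose, from 0.29 to 0.57.

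In the AMPK branch 4 of 11 genes rose, 3 fell and 4 did not pass, so that 63.6% were called, against 47.5% of all genes and 69.1% of those above the median signal. CAB39L, like CAB39 a scaffold (MO25) that holds LKB1 in its active complex with STRAD, had log2 signals of 7.78, 7.84 and 7.83 in shEV and 9.29, 9.44 and 9.33 in shCIRC. This was 2.90-fold higher in shCIRC, a log2 fold change of 1.53 (SE 0.05, limma adjusted p = 3.1e-06), and its 3 probe sets rose by 1.01 to 1.53. CAB39 rose by 0.22 on the log2 scale (SE 0.03, limma adjusted p = 6.5e-04), and its 2 dimmer probe sets by 0.43 and 0.68.

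The other partners of LKB1 in that complex were lower. STRADA and STRADB, pseudokinases that switch LKB1 on, had log2 fold changes of -0.33 (limma adjusted p = 0.0029) and -0.26 (limma adjusted p = 0.014). STK11, which encodes LKB1 and has 1 probe set, had -0.16 (limma adjusted p = 0.028). That call was lost under all 3 other scalings (limma adjusted p = 0.071 to 0.15), in the methods' t-test (adjusted p = 0.069) and without any one of shEV replicates 2 and 3 and shCIRC replicates 1 and 3 (limma adjusted p = 0.065 to 0.090). STRADB was lost only in the methods' t-test (adjusted p = 0.056).

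Among the subunits of AMPK itself, PRKAA1, the catalytic subunit alpha 1, had log2 signals of 8.87, 8.79 and 8.75 in shEV and 9.65, 9.65 and 9.60 in shCIRC. All shCIRC arrays were higher, by a log2 fold change of 0.83 (SE 0.04, limma adjusted p = 1.1e-05), and its 3 probe sets rose by 0.63 to 1.07. PRKAA2, which encodes alpha 2, had 0.07 at a signal of 5.24 in shEV, and its shEV arrays spread by an SD of 0.23. PRKAB2, a scaffold subunit, had 0.20 (limma adjusted p = 0.0047). Of its dimmer probe sets, 1 was higher with 0.55 and 1 had -0.01 and did not pass. The related PRKAB1 had 0.02 at its brightest probe set, but its other 2 were higher, with 0.65 and 0.19, and the mean of its probe sets gave 0.29 (limma adjusted p = 1.8e-04). PRKAG1 and PRKAG2, the subunits that sense AMP, had -0.10 and 0.03 and did not pass. Under some other settings PRKAG1 passed as lower, with limma adjusted p of 0.0076 to 0.029.

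**Figure D3:**
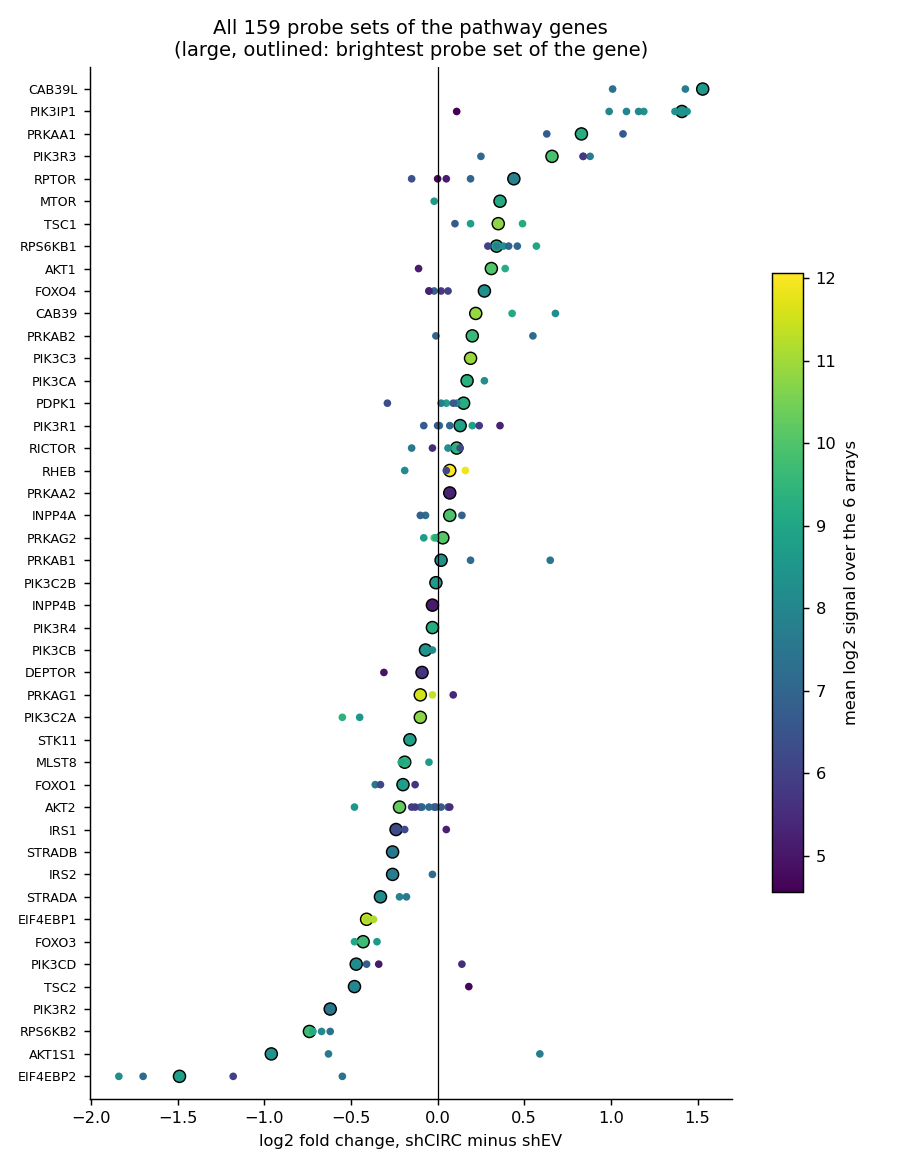
Log2 fold change of shCIRC minus shEV (horizontal axis) of each of the 159 probe sets of the 45 genes, coloured by mean log2 signal; the large outlined point is the brightest probe set of each gene. Probe sets of EIF4EBP2, RPS6KB1, RPS6KB2, CAB39L and PRKAA1 lie on one side of 0, while AKT1S1 has probe sets at -0.96 and 0.59.

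Over all 159 probe sets of these genes, tested among the 37458 probe sets that name 1 gene, 51 were higher in shCIRC (25.6% of all probe sets were) and 44 were lower (24.6% were). More than 1 probe set was available for 37 genes, of which 27 had a call at the brightest. In 10 of these 27 every probe set was called in the same direction: CAB39L, PRKAA1, PIK3R3, RPS6KB1, CAB39 and PIK3CA rose, and EIF4EBP1, EIF4EBP2, FOXO3 and RPS6KB2 fell. In 3, AKT1S1, PDPK1 and RPTOR, another probe set was called in the opposite direction. In the remaining 14 some probe sets did not pass. With the mean of the probe sets the log2 fold change moved by over 1.5 times but kept its direction and its call in RPTOR (0.11), MTOR (0.17), AKT1 (0.20), AKT2 (-0.09), IRS1 (-0.13), IRS2 (-0.15) and TSC2 (-0.15), which became smaller, as in PIK3CD and AKT1S1, and in CAB39 (0.44), which became larger. Conversely, 6 genes without a call at the brightest probe set had one at another: DEPTOR, PIK3C2A, PIK3R1, PRKAB1, RHEB and RICTOR. RHEB and RICTOR had 1 in each direction.

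Whether related genes changed by different amounts was asked by taking, on each array, the log2 ratio of their signals and comparing that ratio between the groups. Of 17 such pairs 12 did not overlap between the groups, while of all 990 pairs that the 45 genes can form 81.8% did not. In 8 pairs the changes differed by at least 0.5 and the groups did not overlap. The ratio of EIF4EBP1 over EIF4EBP2 was 2.27 ± 0.05 (SD, n = 3) in shEV and 3.35 ± 0.10 in shCIRC, and that of RPS6KB1 over RPS6KB2 was -1.20 ± 0.07 and -0.13 ± 0.05. The ratio of CAB39 over CAB39L fell from 2.95 ± 0.02 to 1.64 ± 0.07. For TSC1 over TSC2 the shift of the ratio was 0.83, for PRKAA1 over PRKAA2 it was 0.76 and for AKT1 over AKT2 0.53. PRKAA2 lay near the dim end of the array (5.24 in shEV and 5.31 in shCIRC), so its pair mainly follows PRKAA1 alone. PIK3R1 shifted by 0.75 against PIK3R2 and by -0.54 against PIK3R3. Each of these 8 had p = 0.1 in a two-sided exact permutation test, the smallest that 3 arrays against 3 allow, and an adjusted p of 0.14 over the 17 pairs, so none could pass 0.05. With the mean of the probe sets the shift was 0.44 for TSC1 over TSC2 and 0.29 for AKT1 over AKT2, and 11 pairs did not overlap. The ratio of IRS1 over IRS2 was -1.41 ± 0.04 in shEV and -1.39 ± 0.06 in shCIRC (exact p = 0.8), and that of STRADA over STRADB was 0.64 ± 0.11 and 0.57 ± 0.12 (exact p = 0.6).

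**Figure D4:**
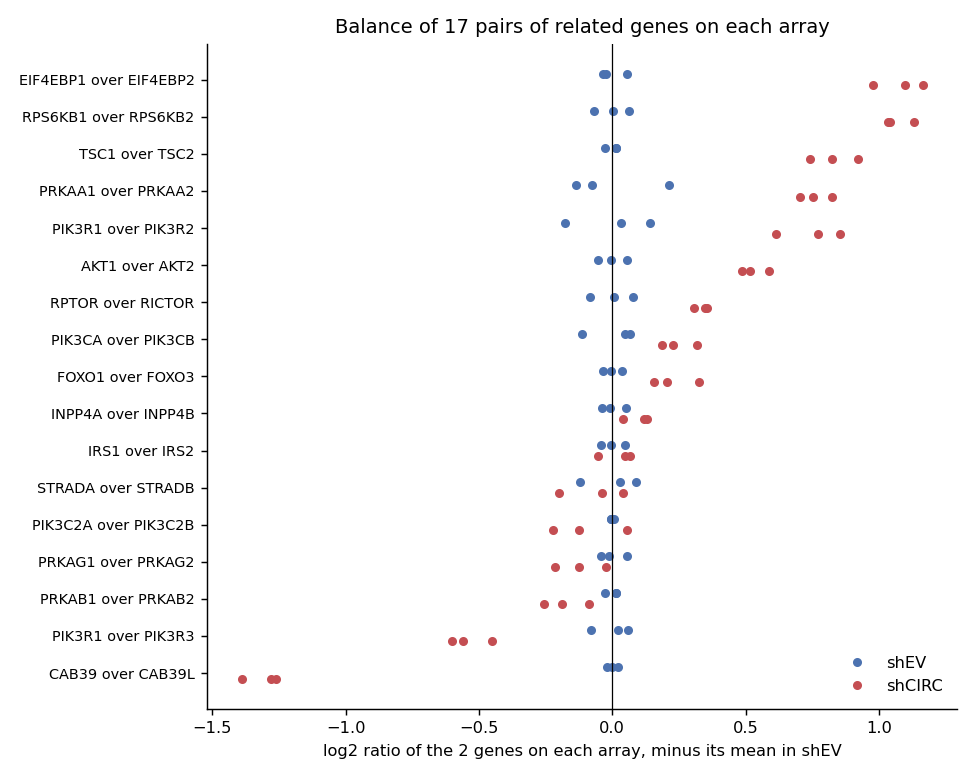
Log2 ratio of 2 related genes on each array, minus its mean over the shEV arrays (horizontal axis), for 17 pairs; blue points are the 3 shEV arrays and red points the 3 shCIRC arrays. The ratios of EIF4EBP1 over EIF4EBP2 and of RPS6KB1 over RPS6KB2 are shifted furthest to the right, by 1.08 and 1.07, and that of CAB39 over CAB39L furthest to the left, by -1.31.

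Other genes of the pathway were taken from a list of 79, of which 70 were measured. In shCIRC 21 of these rose, 21 fell and 28 did not pass, with a median log2 fold change of -0.05. The share called was 60.0%, against 47.5% of all genes (22.8% higher and 24.7% lower) and 69.1% of genes above the median signal. The 27 genes that pass amino acid and stress signals to mTOR complex 1 held 13 that rose and 8 that fell. DDIT4, a stress-induced inhibitor of mTOR complex 1, had log2 signals of 9.65, 9.71 and 9.72 in shEV and 10.77, 10.74 and 10.73 in shCIRC (log2 fold change 1.06, SE 0.03, limma adjusted p = 3.2e-06). LAMTOR4, a part of the Ragulator that anchors mTOR complex 1 to the lysosome, rose by 0.60 (SE 0.03, limma adjusted p = 2.0e-05). On the AKT side 4 of 8 were higher and 2 were lower. PHLPP1, a phosphatase that turns AKT off, had a log2 fold change of -0.81 (SE 0.07, limma adjusted p = 1.2e-04), and SGK1, a kinase related to AKT, of -0.61 (SE 0.05, limma adjusted p = 7.8e-05). Of 6 other genes of the mTOR complexes, their assembly and the TSC complex, 4 were lower. The 1 that was higher encodes a subunit of the TSC complex. Of 11 genes on the PI3K and lipid side 3 fell and 0 rose (median -0.13). Of 11 on the AMPK side, 2 rose, 1 fell and 8 did not pass. On each of these last 2 sides 27.3% were called, below the share of all genes.

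FOXO targets, which AKT holds down through the FOXO factors, were called in both directions as well. Of 24 measured targets 9 rose, 3 fell and 12 did not pass, with a median log2 fold change of 0.08. The share called, 12 of 24, was close to the 47.5% of all genes. GABARAPL1, which coats autophagosomes, rose by 0.87 on the log2 scale (SE 0.05, limma adjusted p = 1.6e-05). The transcription factor KLF2 had -0.82 (SE 0.03, limma adjusted p = 6.6e-06), TXNIP, which binds thioredoxin, had -0.62, and the coactivator CITED2 had -0.59. Several of these genes also answer to p53 and other stress factors, so the list is not specific to FOXO.

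**Figure D5:**
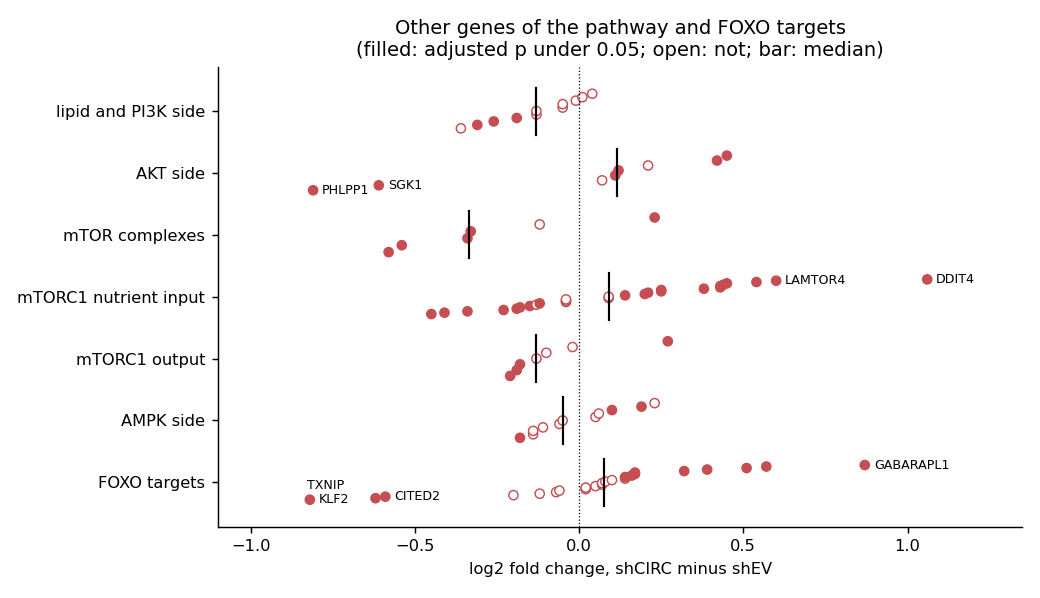
Log2 fold change of shCIRC minus shEV (horizontal axis) of 70 other genes of the pathway in 6 groups and of 24 FOXO targets; filled points had an adjusted p under 0.05, open points did not, and the bar is the median of each group. DDIT4 lies furthest to the right at 1.06, and KLF2 and PHLPP1 furthest to the left at -0.82 and -0.81.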

How the data were processed

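Gene expression was measured in 3 shEV and 3 shCIRC samples of RKO cells on PrimeView arrays, from 6 µg of RNA each. Quantile normalization was done by the authors in R, and the deposited values are log2 signals of 49395 probe sets. A second table annotates 39269 of them, those with a signal over the 20th percentile on 4 or more arrays. The submitters' processing notes name GCOS 1.4. For background correction and probe summarization no method is given in the sources used here. Columns of the authors' own comparison (a p-value, an FDR and fold changes) were not used.

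Control probe sets (73) and those of several genes (1539) or none (199) were left out. Symbols were updated through the Entrez number with the RefSeq table of GRCh38.p14, which matched 37380 of 37458 probe sets. The brightest probe set stood for each gene. Groups were compared with lmFit and eBayes of limma 3.58.1 (R 4.3.3), with Benjamini-Hochberg adjustment over 15894 genes, and this was tested on simulated data. The number of arrays limits the precision. The members, roles, lists and pairs were chosen with earlier results of these data known. The motifs were chosen after the data had been seen. All 45 members are named, with every array for the 16 of largest absolute change. From each further list the 4 called genes of largest absolute change are named, and pairs are named if their changes differ by at least 0.5 without overlap. Alternatives were other scalings, a filter on dim genes, the mean of the probe sets, the methods' t-test, other limma settings, other thresholds, the replicate block and leaving out each array.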

Additional observations from a re-analysis of the deposited data

How the results depend on the processing

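Of the 31 called members, 26 kept their call in every other fit that tested them (15 fits, or 14 for RPTOR, TSC2, PIK3R2 and IRS2, which lie below the median signal), and PDPK1, FOXO4, IRS1, STK11 and STRADB lost it in at least 1. No called member changed direction. Among the members without a call, PIK3C2A, PIK3R1, INPP4A, RICTOR, DEPTOR, PRKAB1 and PRKAG1 gained one in at least 1 other fit. With a fold above 1.3 added to the threshold, 5 members were higher and 8 lower in place of 15 and 16, 9 and 6 genes of the wider pathway in place of 21 and 21, and 4 FOXO targets higher in place of 9. Leaving out 1 array in turn left 14 to 16 members higher and 15 or 16 lower. The difference of the medians of activators and inhibitors ran from 0.06 to 0.21 when 1 array was left out, lowest without shCIRC replicate 1. It was 0.26 with genes above the median signal only, where fewer members are tested, and 0.06 with the wider roles. Counted over every probe set, 51 were higher and 44 lower, since most members have several.

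Samples that share a replicate number deviated together only weakly, with correlations of 0.066, 0.086 and 0.099, although each correlated best with its own number. The labels do not say that the number marks a shared batch. With the replicate block 15 members were higher and 16 lower, 20 and 21 of the wider pathway and 9 and 3 FOXO targets, and no member changed its call.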
